A study of Mus musculus with 4 samples.

Results

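The genes of the NF-kB subunits and their inhibitors were examined in alveolar macrophages (AMs), which reside in the airspaces of the lung. The members were the rows of the gene count table whose symbol was Nfkb1, Nfkb2, Rel, Rela, Relb, Nfkbia, Nfkbib, Nfkbie, Nfkbiz or Tnfaip3. Each symbol matched 1 row, which gave 10 genes of 54532 in all. AMs were purified from lungs of female wild-type mice, on a BALB/c background per the methods, aged 8 to 10 weeks there. Control comprised 2 libraries of AMs from mice that received no 4T1 cells. Tumor comprised 2 libraries of AMs from mice that had carried 4T1 tumors for 2 weeks, where 4T1 is a mouse mammary carcinoma line that seeds the lung. Libraries were made in bulk from total RNA extracts. The labels do not say whether the 2 libraries of a group came from separate mice or from pools. The p-values below therefore measure only the spread between these libraries, estimated with information shared across genes, and not the spread between mice.

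NF-kB is a family of dimeric transcription factors that rest in the cytoplasm bound to IkB proteins and enter the nucleus when the IkB kinase marks those proteins for destruction. RelA, RelB and c-Rel carry their own activation domains, while the products of Nfkb1 and Nfkb2 are precursors that are trimmed to p50 and p52. Several inhibitors are themselves NF-kB targets and close a feedback loop, and in AMs the pathway is known for switching on cytokines and chemokines after microbial or danger signals.

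RefSeq promoter windows of 300 bases (250 before and 50 after a transcription start, build GRCm38.p6) were found for 7 of the 10 genes. Nfkb1, Relb and Nfkbiz had no entry in the set of windows used, which does not cover every gene. The windows were searched on both strands for the 10-base kB consensus, the sequence that NF-kB dimers bind. A match was found for 5 of the 7 genes, against 5.14% of all 27025 genes with a window and 6.13% of the 10124 tested genes with a window. The 130 bases before the start are shown for these 5 genes, since they hold the letters that the subunits of this same family read. They are written 5′ to 3′ on the strand of the gene, and capitals mark the matches, with overlapping matches joined.
Rel (chr11:23770970-23771099, minus strand): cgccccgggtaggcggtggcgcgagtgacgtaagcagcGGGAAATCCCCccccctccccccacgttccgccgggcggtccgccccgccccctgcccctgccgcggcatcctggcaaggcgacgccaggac
Nfkb2 (chr19:46304607-46304736, plus strand): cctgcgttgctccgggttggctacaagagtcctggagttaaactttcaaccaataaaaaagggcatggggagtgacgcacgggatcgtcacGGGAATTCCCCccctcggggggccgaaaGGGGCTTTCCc
Nfkbia (chr12:55492648-55492777, minus strand): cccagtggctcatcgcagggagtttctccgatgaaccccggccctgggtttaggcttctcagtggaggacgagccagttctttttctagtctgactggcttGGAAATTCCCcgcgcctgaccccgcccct
Nfkbie (chr17:45555570-45555699, plus strand): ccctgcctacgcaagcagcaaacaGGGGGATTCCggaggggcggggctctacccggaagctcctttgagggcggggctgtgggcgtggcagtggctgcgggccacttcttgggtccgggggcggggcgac
Tnfaip3 (chr10:19015411-19015540, minus strand): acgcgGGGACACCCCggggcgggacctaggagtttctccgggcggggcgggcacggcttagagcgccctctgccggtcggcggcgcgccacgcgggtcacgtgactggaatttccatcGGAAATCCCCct
The Rel window held a run of overlapping matches from base -92 to base -82 relative to the start. The Nfkb2 window held a run from -39 to -29 and a further match from -11 to -2, and the windows of its other 2 starts, not printed, held matches from -236 to -227 and from 10 to 19, and from -225 to -216. Nfkbia had 1 match close to the start, from -29 to -20, and Nfkbie had 1 match from -106 to -97. Tnfaip3 had a match at each end of the stretch, from -125 to -116 and from -12 to -3, and none in the window of its other start. No match was found in the windows of Rela and Nfkbib. A match is a string of letters and does not show that a factor was bound in these cells.

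**Figure D1:**
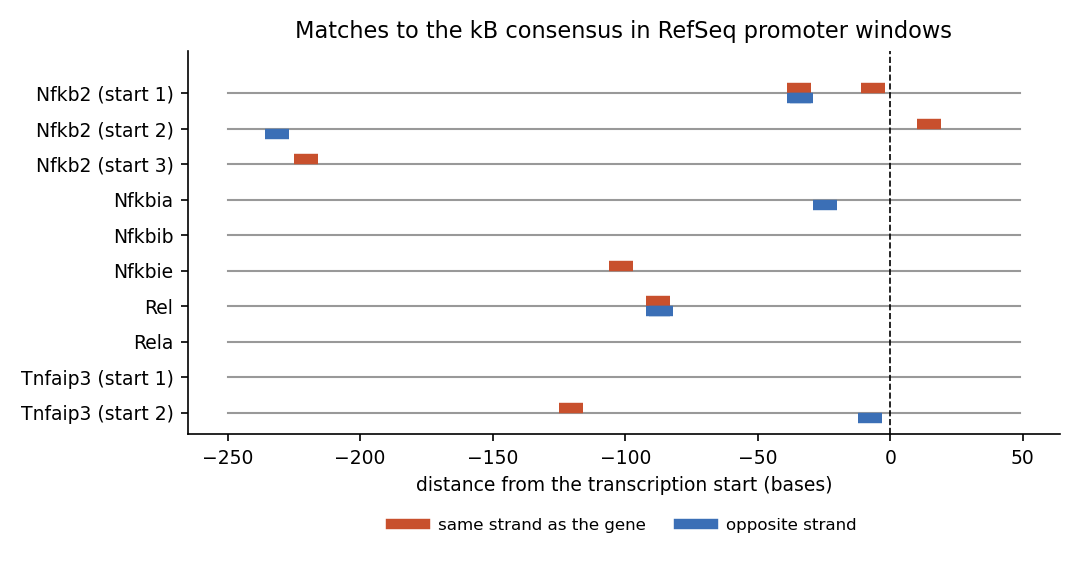
Positions of kB consensus matches in the RefSeq promoter windows of 7 genes. The horizontal axis gives the distance from the transcription start in bases, each grey line is 1 window (Nfkb2 has 3 starts and Tnfaip3 has 2), and blocks mark matches on the strand of the gene (red) or the opposite strand (blue). Rela, Nfkbib and 1 of the Tnfaip3 windows hold none.

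Total counts ranged from 16167147 to 19205737 per library, and the 10 genes together took between 0.615% and 0.674% of them. CPM values below express counts in proportion to the library total after TMM scaling, which corrects for differences in library composition. Each gene was tested for Tumor against Control with edgeR's quasi-likelihood test over 14256 genes, with Benjamini-Hochberg adjustment and a threshold of 0.05. With 2 libraries against 2, an exact permutation test cannot give a two-sided p below 0.333. AM identity genes, such as Siglecf and Marco, were present in every library but fell in Tumor, with a summed level of 20507 and 20659 CPM in Control and of 14314 and 14467 CPM in Tumor, and 17 of the 18 passed the threshold as lower. Genes of neutrophils (12 of 12) and eosinophils (6 of 6) were higher in Tumor, with summed levels of 114 CPM in each Control library and 4511 and 4495 CPM in Tumor for neutrophils, and 0.694 and 0.824 CPM in Control and 2948 and 2922 CPM in Tumor for eosinophils. The 10 hepatocyte genes were also higher, from 4.70 and 5.70 CPM to 859 and 851 CPM, and 7 of them had 0 counts in both Control libraries. Basophil and mast cell genes were higher as well (6 of 6), at 0.267 and 0.317 CPM in Control and 75.0 and 64.0 CPM in Tumor. Both Control libraries had 3 counts or fewer for 5 neutrophil, 3 eosinophil, 8 hepatocyte and all 6 basophil and mast cell genes. Such genes passed the filter on low counts only through Tumor, so their calls could go only 1 way. Of all genes tested, 29.0% were called higher and 24.8% lower. Genes of monocytes and interstitial macrophages (4 of 8 higher, 3 lower), dendritic cells (5 of 8 higher, 1 lower), B cells (5 of 6 higher) and T and NK cells (4 of 5 tested higher) had summed levels of at most 74.4 CPM in any library. The methods say only that AMs were purified for sequencing, while elsewhere the study takes AMs as CD45+ CD11b- CD11c+ SiglecF+ cells, a gate that would remove neutrophils, eosinophils and basophils, which carry CD11b, and hepatocytes, which lack CD45. The part of these other cells and of the fall in AM identity genes in the results below was not tested. In bulk RNA, fewer cells of a type and less RNA per cell cannot be told apart.

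The 5 subunit genes were lower and the inhibitors were split. Of the 10 genes, 9 passed the threshold, where 53.8% of all genes tested did. The 7 that were lower compare with 24.8% of all genes called lower, and the 2 that were higher compare with 29.0% called higher. With libraries scaled on AM identity genes the counts turned to 2 lower and 4 higher, while 94.3% of the calls over all genes were then higher. The median log2 fold change was -0.48 over the 10 genes and 0.02 over all genes. The changes were modest, since only Nfkb2 passed a test for more than 1.5-fold, which 17.0% of all genes passed. The 2 groups did not overlap in CPM for any of the 10 genes, which was also true of 75.0% of all genes.

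**Figure D2:**
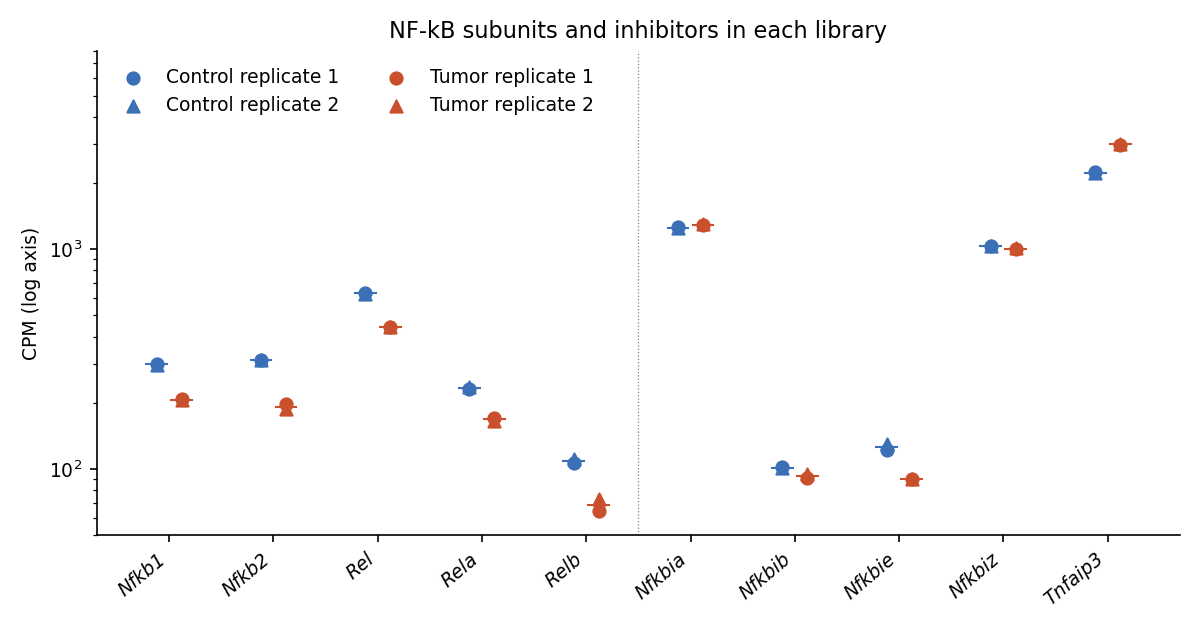
CPM (log axis) of the 10 genes in each of the 4 libraries, with Control in blue, Tumor in red, circles for replicate 1, triangles for replicate 2 and a short line at the group mean. The subunits, left of the dotted line, sit lower in Tumor, Tnfaip3 sits higher, and Nfkbia and Nfkbiz are nearly level.

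Rela and Rel encode the subunits of the canonical dimers that drive inflammatory genes. Rela (ENSMUSG00000024927, chr19:5637483-5648130, GRCm38) was at 230.1 and 235 CPM in Control and at 171 and 165 CPM in Tumor. Both Tumor libraries were below both Control libraries. The mean fell from 233 ± 3.79 to 168 ± 4.5 CPM (SD, n = 2). On the log2 scale the change was -0.47 ± 0.0344 (SE), with an adjusted p of 2.55e-12 in edgeR's quasi-likelihood test. Rel (ENSMUSG00000020275, chr11:23736847-23770970), the most counted of the 5 subunit genes, was at 631 and 627 CPM in Control and at 441 and 444 CPM in Tumor. The groups lay far apart relative to the gap between replicates. Its log2 fold change was -0.51 ± 0.0241 (adjusted p = 1.47e-16, edgeR).

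Nfkb1 (ENSMUSG00000028163, chr3:135584655-135691547) encodes the precursor of p50, the usual partner of RelA. It was at 301 and 297 CPM in Control and at 208 and 205 CPM in Tumor. Every Tumor value was lower, and the log2 fold change was -0.53 ± 0.0308 (adjusted p = 1.34e-14, edgeR). Rela, Rel and Nfkb1 thus changed by much the same amount. In the same fit the change of Nfkb1 minus that of Rela was -0.06 and that of Rel minus that of Rela was -0.04, differences that do not depend on how libraries are scaled.

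Nfkb2 and Relb encode the pair that makes up the dimer of the non-canonical pathway, and they had the largest falls of the 10 genes. Nfkb2 (ENSMUSG00000025225, chr19:46304737-46312090) was at 312 CPM in each Control library and at 197 and 187 CPM in Tumor. The groups did not overlap, and the log2 fold change was -0.70 ± 0.0323 (adjusted p = 7.52e-17, edgeR). Relb (ENSMUSG00000002983, chr7:19606217-19629438), the least counted subunit gene, was at 107 and 111 CPM in Control and at 64.4 and 72.6 CPM in Tumor. Both Tumor libraries were below both Control libraries. Its log2 fold change was -0.66 ± 0.0534 (adjusted p = 1.92e-11, edgeR). Relative to Rela, Nfkb2 fell by a further 0.23 ± 0.0472 and Relb by a further 0.19 ± 0.0635 on the log2 scale (SE). The distance of Relb varied with the library left out. Without Tumor replicate 1 the log2 fold changes were -0.59 for Relb and -0.50 for Rela, and without Tumor replicate 2 they were -0.76 and -0.45.

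The direction of the subunits depended on the scaling, because libraries scaled on the 18 AM identity genes gave log2 fold changes of 0.003 for Nfkb1, 0.03 for Rel and 0.07 for Rela, none of which passed the threshold. Under that scaling Nfkb2 was still lower at -0.17 (adjusted p = 6.34e-05, edgeR) and Relb at -0.13 (adjusted p = 0.0389, edgeR). The AM identity list had a median log2 fold change of -0.52 under TMM, close to the -0.53 of the 5 subunits. That scaling moved the median of all genes from 0.02 to 0.55 and called 94.3% of the changed genes higher, against 53.9% under TMM. It moves every gene by nearly the same amount, so the distance of a gene from that median is fixed and is no second test.

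**Figure D3:**
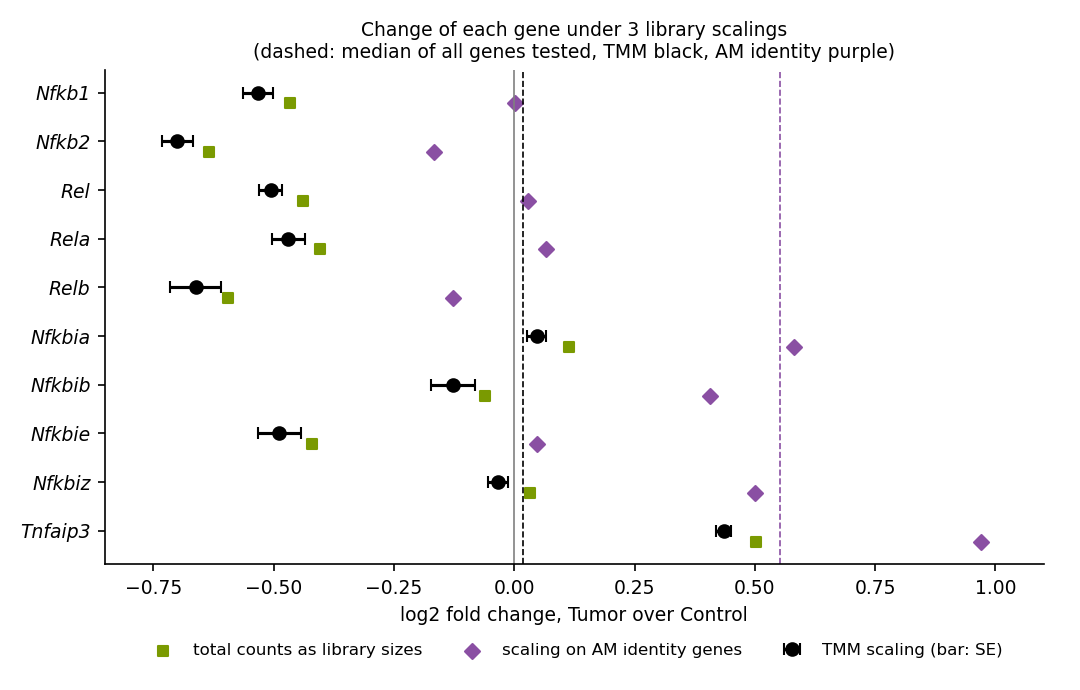
Log2 fold change of Tumor over Control for the 10 genes under TMM (black, bars are SE), total counts as library sizes (green squares) and scaling on AM identity genes (purple diamonds), with dashed lines at the median of all genes for TMM and for AM identity scaling. Each scaling moves all 10 genes together, so their order is kept while the zero moves.

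Among the cytoplasmic inhibitors under TMM, Nfkbie was lower and the other 2 barely changed. With scaling on AM identity genes Nfkbia was at 0.58 (adjusted p = 2.18e-20, edgeR), Nfkbib turned higher at 0.41 (adjusted p = 7.15e-09, edgeR) and Nfkbie, at 0.05, no longer passed the threshold (adjusted p = 0.359, edgeR). Nfkbia (ENSMUSG00000021025, chr12:55489410-55492647) encodes IkBα, the inhibitor that is degraded and resynthesised fastest after stimulation. It was at 1256 and 1243 CPM in Control and at 1283 and 1298 CPM in Tumor. The Tumor values were just above the Control values, with a log2 fold change of 0.05 ± 0.0191 and an adjusted p of 0.0416 in edgeR's quasi-likelihood test. This call rested on every library and was lost when any 1 of the 4 was left out (adjusted p between 0.0772 and 0.550), with log2 fold changes of 0.04 without Control replicate 1, 0.02 without Control replicate 2, 0.05 without Tumor replicate 1 and 0.03 without Tumor replicate 2.

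Nfkbib (ENSMUSG00000030595, chr7:28758251-28767512) encodes IkBβ, a slower partner of RelA and c-Rel dimers. It was at 102 and 101 CPM in Control and at 91.0 and 94.6 CPM in Tumor. Both Tumor values were lower by a small margin, with a log2 fold change of -0.13 ± 0.0459 (adjusted p = 0.0208, edgeR). The call was lost without Control replicate 1 (adjusted p = 0.0841, log2 fold change -0.13) and without Tumor replicate 1 (adjusted p = 0.0936, log2 fold change -0.11). Nfkbie (ENSMUSG00000023947, chr17:45555703-45563169) encodes IkBε, another feedback inhibitor. It was at 122 and 129.8 CPM in Control and at 90.0 and 89.7 CPM in Tumor. The groups were well apart, and the log2 fold change of -0.49 ± 0.0448 (adjusted p = 2.79e-10, edgeR) differed from that of Rela by only -0.02.

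Nfkbiz (ENSMUSG00000035356, chr16:55811375-55838899) encodes IkBζ, a nuclear member of the family that works with p50 and can promote as well as restrain transcription. It was at 1029 and 1033 CPM in Control and at 1001 and 1013 CPM in Tumor. The Tumor values were slightly lower without overlap, but the log2 fold change of -0.03 ± 0.0200 did not pass the threshold (adjusted p = 0.165, edgeR). When libraries were scaled by their totals alone it was 0.03 (adjusted p = 0.168, edgeR), and with scaling on AM identity genes it was called higher at 0.50 (adjusted p = 2.65e-18, edgeR), so its direction depended on the scaling.

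Tnfaip3 (ENSMUSG00000019850, chr10:19000910-19015657) encodes A20, a ubiquitin-editing enzyme that shuts off signalling upstream of the IkB kinase, and it was the member that clearly rose. It was at 2236 and 2212 CPM in Control and at 2988 and 3026 CPM in Tumor. Both Tumor libraries were above Control by many times the replicate gap, and the mean went from 2224 ± 16.8 to 3007 ± 27.0 CPM (SD, n = 2). The log2 fold change was 0.44 ± 0.0163 (adjusted p = 5.81e-19, edgeR). It was 0.97 with scaling on AM identity genes. That scaling moved every gene up by nearly the same amount, so the kept direction is no second test. Against Rela in the same fit, Tnfaip3 was higher by 0.90 ± 0.0381, Nfkbia by 0.52 ± 0.0393, Nfkbiz by 0.44 ± 0.0398 and Nfkbib by 0.34 ± 0.0573 on the log2 scale (SE).

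Levels were compared between genes as TPM, which divides counts by the deposited gene length and sets each library to the same total. In Control the order was Nfkbia at 2453 ± 26.2 TPM, Tnfaip3 at 973 ± 11.0, Nfkbiz at 649 ± 0.783, Nfkb2 at 300 ± 1.51, Rela at 271 ± 3.38, Rel at 266 ± 2.18, Nfkbib at 148 ± 1.02, Nfkbie at 131 ± 4.89, Relb at 88.4 ± 2.09 and Nfkb1 at 78.4 ± 1.07 TPM (SD, n = 2). Rela and Rel were closer than the sum of their SDs, and the other neighbours in this order were further apart. In Tumor the order of the first 3 was the same, at 2555 ± 31.7, 1326 ± 17.4 and 639.7 ± 8.38 TPM. Below them Rela at 197 ± 4.47, Rel at 189 ± 1.67 and Nfkb2 at 186 ± 6.14 TPM followed, with Rel and Nfkb2 within their spread. Nfkbib at 136 ± 4.40 and Nfkbie at 94.1 ± 0.143 TPM followed, and Relb at 56.2 ± 4.98 and Nfkb1 at 54.7 ± 0.339 TPM were within their spread.

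The order depended on the length used. The place of Nfkb1 at the end rested on a deposited length of 12061 bases, which exceeds its longest coding transcript of 4117 bases in GENCODE. Divided by that transcript instead, Nfkb1 was at 72.6 ± 0.719 CPM per kilobase in Control, near Rela at 85.7 ± 1.39, Rel at 84.2 ± 0.370 and Nfkb2 at 81.2 ± 0.10, and above Relb at 49.2 ± 1.35. In Tumor the values were 50.2 ± 0.518 for Nfkb1, 61.9 ± 1.66 for Rela, 59.3 ± 0.281 for Rel, 50 ± 1.85 for Nfkb2 and 31.0 ± 2.62 for Relb. On this scale Nfkb2 came after Rela and Rel in Control. Nfkbie at 51.8 ± 2.13 CPM per kilobase came before Nfkbib at 49.2 ± 0.151 in Control, where Nfkbib was level with Relb. In Tumor Nfkbib at 45.0 ± 1.27 came before Nfkbie at 36.9 ± 0.0959 and Relb. Among all 14256 genes tested, Nfkbia ranked 39 by TPM in Control and 30 in Tumor, and Tnfaip3 ranked 122 and 87. Nfkb2 moved from rank 518 to rank 854, and Relb from 1776 to 2810.

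The summed level of the 5 subunits was 1003 and 1004 TPM in Control and 687 and 680.4 TPM in Tumor. That of the 4 IkB genes and Tnfaip3 was 4378 and 4329.9 TPM in Control and 4707 and 4795 TPM in Tumor. The subunit sum was lower and the other sum higher in each Tumor library, and within the latter Tnfaip3 and Nfkbia were higher while Nfkbib, Nfkbie and Nfkbiz were lower. These sums depend on library scaling, as the log2 fold changes of Rela, Rel and Nfkb1 near 0 with AM identity scaling show, whereas ratios within a library do not. The log2 ratio of inhibitors to subunits was 2.13 and 2.11 in Control and 2.78 and 2.82 in Tumor, a difference of 0.68, or 1.60-fold, given without a test. Without Tnfaip3 the difference was 0.57. Among pairs of genes, Tnfaip3 over Rel had a TPM ratio of 3.66 and 3.65 in Control and of 7.0 and 7.04 in Tumor. Nfkbia over Rela went from 9.20 and 8.91 to 12.6 and 13.3, and Nfkbiz over Nfkb1 from 8.21 and 8.36 to 11.5 and 11.9. These 3 ratios were higher in each Tumor library than in either Control library. Nfkbie did not share such a rise, since its log2 fold change differed from that of Rela by only -0.02. Divided by the longest coding transcripts instead, Nfkbiz over Nfkb1 was 3.42 and 3.48 in Control and 4.80 and 4.94 in Tumor, and Tnfaip3 over Rel was 5.98 and 5.96 in Control and 11.4 and 11.5 in Tumor. Rel over Rela, at 0.997 and 0.968 in Control and 0.937 and 0.979 in Tumor, overlapped between the groups.

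**Figure D4:**
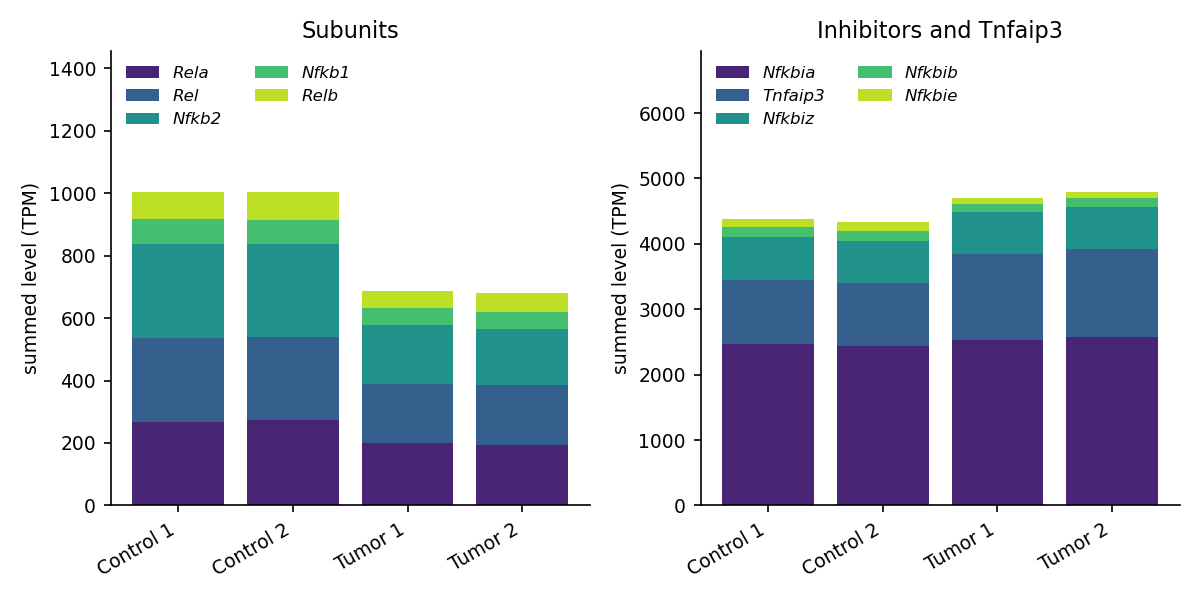
Summed TPM per library, stacked by gene from 0, for the 5 subunits (left) and for the 4 IkB genes and Tnfaip3 (right), on separate vertical scales. The subunit stack stands at 1003 and 1004 TPM in Control and at 687 and 680.4 TPM in Tumor, while the other stack is higher in both Tumor libraries.

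The genes nearest to Tnfaip3 and Nfkb2, the largest rise and the largest fall, were found by the Euclidean distance of log2 CPM over the 4 libraries among 12224 protein-coding genes. For Tnfaip3 they were Actg1 at a distance of 0.0573, Ddx5 at 0.505 and Myh9 at 0.534. Actg1, which encodes a cytoplasmic actin, had a log2 fold change of 0.43, while Ddx5 and Myh9 were near in level but had changes of 0.02 and -0.001. For Nfkb2 they were Pcf11 at 0.103, Sdc3 at 0.109 and Id2 at 0.134, with log2 fold changes of -0.78, -0.68 and -0.72.

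The wider pathway was described with lists of its other genes, whose counts stand beside 29.0% of all genes called higher and 24.8% called lower. Of 4 other IkB proteins and IkB-binding proteins, 3 fell and none rose (median log2 fold change -0.37). Nfkbid, which encodes the nuclear protein IkBNS, was at 213 CPM in each Control library and at 107 and 109.7 CPM in Tumor. It fell by more than any of the 10 members, with a log2 fold change of -0.98 ± 0.0371 (adjusted p = 8.47e-19, edgeR). Bcl3, a nuclear partner of p50 and p52, changed by -0.44 ± 0.0962 and Nkiras2, which binds IkB proteins, by -0.30. With scaling on AM identity genes Nkiras2 was called higher at 0.23, and Bcl3, at 0.09, was not called (adjusted p = 0.392, edgeR).

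Of 17 genes of the IkB kinase complex and its adaptors, 5 rose, 5 fell and 7 did not pass the threshold (median -0.03), shares close to those over all genes. The kinase subunit Chuk changed by -0.27, the kinase Map3k7 by -0.33 and Irak2 by -0.53. With scaling on AM identity genes Chuk and Map3k7 were called higher, at 0.26 and 0.20. Irak2, at 0.002, was not called under that scaling (adjusted p = 0.962, edgeR). Under TMM Sharpin and Rnf31, parts of the linear ubiquitin ligase, changed by 0.58 and 0.26, and Irak4, a kinase of Toll-like receptor signalling, by 0.28. Ikbkb, the other catalytic kinase subunit, was level at 208 and 204 CPM in Control and 206 and 203 CPM in Tumor; it was singled out after its values were seen.

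Of 9 tested genes of the non-canonical pathway, 3 rose and 3 fell (median 0.32). Birc3, a ubiquitin ligase that keeps the kinase NIK low, was at 119 and 116 CPM in Control and at 254 and 247 CPM in Tumor. The groups were far apart, with a log2 fold change of 1.09 ± 0.0359 (adjusted p = 3.42e-20, edgeR). Birc2, its close relative, changed by 1.07 and Map3k14, which encodes NIK itself, by 0.49. With scaling on AM identity genes Tnfrsf11a and Traf3 were called higher, at 0.26 and 0.34. Traf2, at 0.13, was not called under that scaling (adjusted p = 0.213, edgeR). Under TMM Traf2, Tnfrsf11a and Traf3 changed by -0.41, -0.27 and -0.20. The call of Tnfrsf11a, which encodes the receptor RANK, was lost without Control replicate 1 (log2 fold change -0.10) and without Tumor replicate 2 (-0.25), and without Control replicate 2 the log2 fold change was -0.45. Tnfrsf13c was below the filter on low counts.

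Of 16 other brakes on the pathway, 5 rose, 7 fell and 4 did not pass the threshold (median -0.07). Tnip1, which encodes an adaptor that brings A20 to its substrates, was at 210.0 and 204 CPM in Control and at 84.9 and 86.4 CPM in Tumor. It fell while Tnfaip3 rose, with a log2 fold change of -1.27 ± 0.0393 (adjusted p = 6.70e-21, edgeR). Its relative Tnip3 changed by -1.03 and Tank, which binds TRAF proteins, by -0.80. Cyld, another deubiquitinase, went from 92.5 and 92.1 CPM to 155 and 154 CPM, a log2 fold change of 0.74 ± 0.0409. Sigirr, an inhibitory receptor of the interleukin-1 receptor family, changed by 1.42 at a low level of 1.41 CPM in Control, and the ubiquitin ligase Itch by 0.27.

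Of 38 tested NF-kB target genes, 11 rose and 25 fell under TMM, and the median log2 fold change was -0.81. With scaling on AM identity genes 16 were higher and 20 lower. Nos2 and Il12b passed the filter only through Tumor and Csf3 only through Control, and with at least 10 counts required in every library 9 targets were higher and 24 lower. A change of more than 1.5-fold was called for 28 of them, against 17.0% of all genes. Tnf, a cytokine gene, was at 2018 and 2049.8 CPM in Control and at 432 and 429 CPM in Tumor. This was a large fall without overlap, with a log2 fold change of -2.24 ± 0.0205 (adjusted p = 2.40e-33, edgeR). Ptges, an enzyme of prostaglandin E2 synthesis, changed by -2.28, the chemokine gene Cxcl3 by -1.95 and the adhesion gene Icam1 by -1.78. The 4 named genes that rose were at 7.30 CPM or less in Control. Vcam1 went from 2.08 and 2.79 CPM to 24.6 and 23.9 CPM (log2 fold change 3.33 ± 0.154), Ccl22 changed by 2.18 and Il12b by 2.80. Nos2 had 1 count in Control and 270 in Tumor over both libraries, a ratio of 252 with a 95% counting interval from 44.9 to 10005. Ccl20 had 0 counts in every library. The kB consensus was found in the windows of 12 of 30 targets, namely 2 of 8 that rose and 9 of 19 that fell, and the remaining 1 was called in neither direction.

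**Figure D5:**
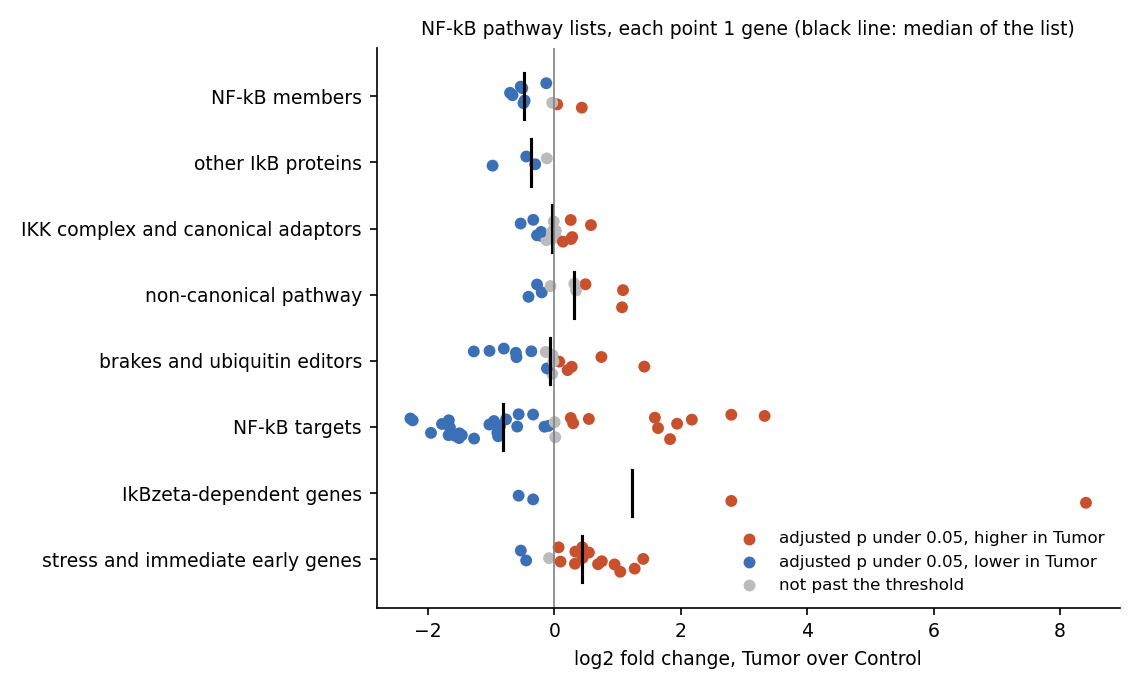
Log2 fold change of Tumor over Control for the genes of 8 lists, each point 1 gene, coloured red or blue where the adjusted p was under 0.05 and grey where it was not, with a black line at the list median; Nos2, Saa3 and Csf3, at 3 counts or fewer in each library of 1 group, are left out as points. The targets spread widely around a median of -0.81, and the 10 members lie in a narrow band by comparison.

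Of 9 genes that depend on IkBζ in other systems, 6 were tested, 3 higher and 3 lower. Saa3, Lcn2 and Il12b, the 3 called higher, had fewer than 10 counts in each Control library and passed the filter only through Tumor, and Csf3, called lower, passed it only through Control, so these calls could go only 1 way and the tally is no sign of the list's direction. Lcn2 was at 0.373 and 0.507 CPM in Control and at 148 and 152 CPM in Tumor, while Il6 changed by -0.56 and Ccl2 by -0.34. With scaling on AM identity genes Il6 was at -0.03 and no longer called (adjusted p = 0.691, edgeR), and Ccl2 turned to 0.20 (adjusted p = 0.0063, edgeR). Saa3 had 3 counts in Control and 6274 in Tumor over both libraries, a ratio of 1955 with a 95% counting interval from 669 to 9482. Neutrophil genes were higher in the same 2 libraries as Lcn2 and Saa3, and their part was not tested. Csf2, Edn1 and Il17f were below the filter.

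Stress and immediate early genes, which respond to handling of tissue as well as to signals in the animal, were also higher in Tumor. Of 16 genes, 13 rose and 2 fell, beside 29.0% of all genes called higher and 24.8% called lower. The test for more than 1.5-fold was passed by 5 of the 16 and by 17.0% of all genes. The summed level of the 16 was 9606 and 9735 CPM in Control and 13045 and 13132 CPM in Tumor. Their median log2 fold change of 0.45 was close to the 0.44 of Tnfaip3. The part of these genes' rise in that of Tnfaip3 was not tested.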

How the data were processed

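RNA was measured in purified AMs, with 2 Control and 2 Tumor libraries made from total RNA with a NEBNext Ultra kit per the labels. The authors aligned reads with HISAT2 2.0.5 and counted them per gene, and the deposited values are raw counts per gene with the gene length beside them. The strand setting, the build and the handling of multiply mapped reads are not given in the sources used here. Of the gene identifiers, 54409 were found in GENCODE M21 (GRCm38), and 98.3% of these had identical coordinates, including 9 of the 10 members (all but Nfkb2), so coordinates are given as GRCm38.

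The labels' titles gave the groups. The analysis used edgeR 4.0.16 in R 4.3.3. Genes under the minimum count of 10 in filterByExpr were dropped, libraries were scaled by TMM, and the quasi-likelihood test compared Tumor with Control with no covariate, leaving 2 residual degrees of freedom. The test shares information on spread across genes, so its p-values do not rest on these 2 degrees alone. P-values were adjusted over 14256 genes. The floor was set at 3 counts, and the counting interval of a ratio covers counting error only. TPM values were computed from the counts and deposited lengths. Depth was 16167147 to 19205737 counts, where the floor corresponds to 0.153 to 0.190 CPM. The members and the gene lists were chosen with earlier results of these data known. Beside the members, the text names from each pathway list up to 3 called genes in each direction with the largest change (4 for targets) and, in the group where they were higher, 50 counts or more on average. The 3 protein-coding genes nearest in log2 CPM (prior count 2) to the largest rise and fall are also named. Alternatives used DESeq2 1.42.0, limma 3.58.1, other scalings and filters, a test for more than 1.5-fold, and each library left out in turn. The procedure was tested on simulated data beforehand.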

Additional observations from a re-analysis of the deposited data

How the results depend on the processing

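Under AM identity scaling, 4 of the 10 genes were higher and 2 lower, and log2 fold changes reversed to 0.00254 for Nfkb1, 0.0283 for Rel, 0.0653 for Rela, 0.41 for Nfkbib, 0.0467 for Nfkbie and 0.50 for Nfkbiz, and among pathway genes to 0.0908 for Bcl3, 0.23 for Nkiras2, 0.00194 for Irak2, 0.20 for Map3k7, 0.26 for Chuk, 0.13 for Traf2, 0.26 for Tnfrsf11a, 0.34 for Traf3 and 0.20 for Ccl2. Of these, the values of Nfkb1, Rel, Rela, Nfkbie, Bcl3, Irak2 and Traf2 did not pass the threshold under that scaling. Total counts reversed Nfkbiz to 0.0333. With total counts 62.7% of calls were higher, against 53.9% under TMM. A test for more than 1.5-fold called 1 of the 10 genes (0 higher, 1 lower), 38 pathway genes against 69, and 2420 of all genes against 7671. The members called higher numbered 1 with DESeq2 size factors, 1 without a filter, 1 with DESeq2's Wald test, 1 at an adjusted p under 0.01, and between 1 and 1 with each library left out, all through the loss of Nfkbia; a group left with 1 library was assumed to vary like the other. Nfkbib was lost with total counts (adjusted p = 0.281), at least 10 counts in every library (0.0577), DESeq2 (0.0540) and an adjusted p under 0.01, in addition to the libraries named above. The difference of the inhibitor to subunit log2 ratio was 0.77 from CPM, 0.57 without Tnfaip3, and 0.71 with the longest coding transcript, an alternative chosen after seeing the data. Scaling on AM identity genes moves every gene by nearly the same amount, and the stricter thresholds leave the log2 fold changes as they were. The cause of the other shifts was not tested. Of 160 values for the 10 genes over 16 settings, 131 kept direction and side of the threshold, 22 lost the call and 7 reversed.

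The deviations of same-numbered libraries had a correlation of 0.029. With 2 libraries a group this is a single contrast, so it cannot show whether the numbers pair the samples, and the labels do not say. With a replicate block, 7446 of all genes were called, and of the 10 genes 9 were called, 2 higher and 7 lower. Of the target genes 11 were higher and 25 lower with the block, and 69 pathway genes were called.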
